A study of Homo sapiens and Mus musculus with 24 samples.

Results

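The genes described here are 30 mouse genes of cholesterol and fatty acid synthesis, read in cultured cancer-associated fibroblasts (CAFs). They were chosen by symbol as members of these pathways, with earlier results of these data known. All 30 were present among the 39089 genes of the fibroblast table, and all 30 were among the 14828 genes tested, which had at least 1 TPM (a transcript level scaled for gene length and library size) in at least 2 of 10 libraries. The list holds 7 genes of the mevalonate branch, 11 genes of the steps leading on to cholesterol, 4 genes of sterol control and transport and 8 genes of fatty acid synthesis.

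The series holds RNA-seq of 24 libraries, of which 12 are of the human prostate cancer line LNCaP and are not used here. The other 12 are of CAFs, stromal cells taken from tumour-bearing mice and grown in DMEM with fetal bovine serum. 8 of the CAF libraries were collected at day 7 and came from mice that carry, among the alleles given in the labels, Trp53PC-/-. In these, 2 libraries had received 1 µM enzalutamide, which blocks the androgen receptor, 2 had received 5 ng/ml TGF-beta1, a cytokine that activates fibroblasts, 2 are labelled with both agents at these doses, and 2 had received the vehicle DMSO. 2 more were isolated from mice of the same genotype that the labels call ADT mice, without spelling out the letters, and were collected at day 0 without treatment. A separate genotype field reads WT for all of them, and the labels name neither the strain, the age nor the number of the mice, nor the promoter behind the PC alleles. The last 2 libraries are labelled as Sox4-overexpressing and were left out, because the difference between their 2 columns followed that between the 2 ADT columns across genes (Pearson's r = 0.94 over the 14828 genes tested, which are not independent replicates), so that they cannot be taken as separate libraries.

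Cells make cholesterol from acetyl-CoA through mevalonate, isoprenoid diphosphates, squalene and lanosterol, and they make fatty acids from acetyl-CoA through malonyl-CoA. Most of these enzymes are transcribed under the control of the sterol regulatory element-binding proteins, SREBP-1 and SREBP-2, which are held in the endoplasmic reticulum by Insig proteins when sterols are plentiful and are carried to the Golgi and cleaved when sterols are scarce. Fibroblasts use the products for membranes and for prenylation of small GTPases.

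Reads behind the values were recovered from the smallest steps of each gene, and ran from 17372418 to 21040105 per library. Each of the 30 genes had between 96 and 46006 reads in a library. The labels speak of biological replicates, but the 2 libraries of a group differed by 1.39 to 1.67 times the squared difference that sampling of reads alone would give, and p-values here measure only the spread between these libraries, which may be technical. The libraries labelled with both agents differed from those of the ADT mice by only 1.81 to 2.52 times sampling noise, and from the DMSO, enzalutamide and TGF-beta1 libraries by 209 to 237 times. They are therefore called libraries labelled with both agents throughout. Of 17519 genes with recovered reads, 112 had a DMSO value that was not a whole number of reads, none of them among the 30. For 61 of these the DMSO values lay in steps of 0.3 read, 55 of them with 20 reads or more in a library. Those of the 55 in other lists were left out of the counts below. The DMSO columns summed to 986375 and 986203 TPM, and the other columns of the fit to 1000000 TPM. Fibroblast markers were abundant, with 9 or 10 of 10 markers at 1 TPM or more in every group. In bulk RNA, fewer cells of a type and less RNA per cell cannot be told apart.

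Enzalutamide lowered nearly the whole set of genes. Of the 30, 28 fell and none rose, where over all 14828 genes tested 15.2% fell and 9.83% rose (limma on log2(TPM + 1), Benjamini-Hochberg over all genes, adjusted p under 0.05). The same 28 had an unadjusted p under 0.05, as had 36.6% of all genes tested in either direction. Their log2 differences ran down to -0.99, the median of all 30 was -0.70, and the median of all genes tested was -0.01. The largest adjusted p among the 28 was 0.0035. Summed over the 30 genes, the enzalutamide libraries held 65.3% and 65.6% of the DMSO mean. Most fibroblast markers were lower as well: 7 of 10 fell and 1 rose, with a median log2 difference of -0.29 and a range from -0.94 to 0.23. The 3 with the smallest adjusted p were Col3a1, a collagen chain, at -0.94, Vim, which encodes vimentin and rose, at 0.23, and Col1a2, another collagen chain, at -0.24. The 10 markers summed to 13520 to 13640 TPM with enzalutamide, against 14490 to 14580 TPM with DMSO, and their part in the falls of the 30 genes was not tested.

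**Figure D1:**
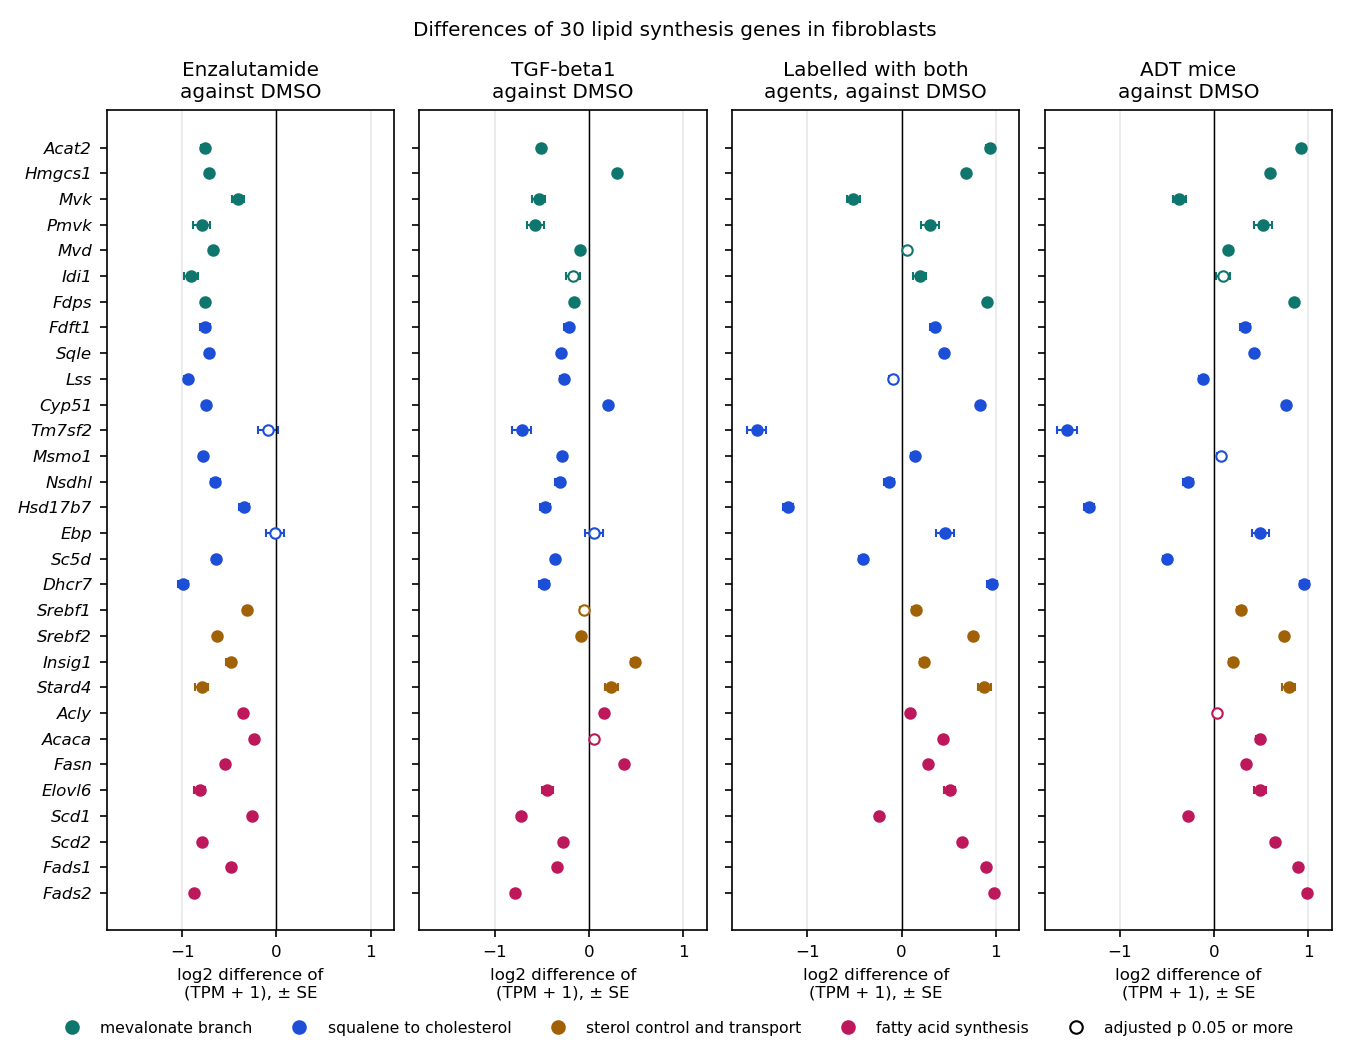
Log2 differences of (TPM + 1) for the 30 genes, in rows by role, for enzalutamide, TGF-beta1, the libraries labelled with both agents and the ADT mice, each against DMSO. Points are differences of 2 against 2 libraries, bars are standard errors and open points did not pass at an adjusted p of 0.05; in the enzalutamide panel 28 points lie left of 0 and are filled, and in the ADT panel 20 filled points lie right of 0 and 7 left.

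All 7 genes of the mevalonate branch fell under enzalutamide, with a median log2 difference of -0.75. Acat2, the thiolase that joins acetyl-CoA units at the start of the path, had 40.7 and 44.0 TPM with enzalutamide, against 70.9 and 74.0 TPM with DMSO (1.71-fold lower, log2 -0.76, SE 0.039, adjusted p = 5.9e-06). Hmgcs1, the HMG-CoA synthase that acts next, had 92.4 and 89.8 TPM with enzalutamide, against 153 and 148 TPM with DMSO (1.65-fold lower, log2 -0.72, SE 0.026, adjusted p = 7.2e-07). In both genes the libraries of a group lay close together and the groups were far apart. Idi1, which interconverts the C5 isoprenoid units, had 25.5 and 28.1 TPM with enzalutamide, against 52.96 and 49.3 TPM with DMSO, the steepest fall of the branch (1.91-fold lower, log2 -0.91, SE 0.071, adjusted p = 6.4e-05). Fdps, which makes farnesyl diphosphate for sterols and for prenylated proteins, was the most abundant of the branch and had 162 and 161 TPM with enzalutamide, against 275 and 272 TPM with DMSO (1.69-fold lower, log2 -0.75). Both Fdps groups varied by under 5 TPM within themselves. The kinase Mvk fell least, with 44.3 and 47.8 TPM with enzalutamide, against 63.8 and 59.0 TPM with DMSO (log2 -0.41, adjusted p = 0.0035). The second kinase Pmvk had 12.01 and 11.5 TPM with enzalutamide, against 20.7 and 21.5 TPM with DMSO (log2 -0.79). The decarboxylase Mvd had 36.0 and 34.8 TPM with enzalutamide, against 57.0 and 57.1 TPM with DMSO (log2 -0.67).

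Of the 11 genes between farnesyl diphosphate and cholesterol, 9 fell under enzalutamide, with a median log2 difference of -0.72 over the 11. Dhcr7, the reductase of the last step to cholesterol, had 7.78 and 7.99 TPM with enzalutamide, against 16.5 and 16.8 TPM with DMSO, the largest difference among the 30 genes (2.11-fold lower, log2 -0.99, SE 0.05, adjusted p = 5.3e-06). Lss, which closes the sterol rings to give lanosterol, had 15.3 and 14.7 TPM with enzalutamide, against 29.9 and 29.5 TPM with DMSO (1.98-fold lower, log2 -0.94, adjusted p = 2.6e-06). In both, each DMSO library stood far above each enzalutamide library. The squalene synthase gene Fdft1 had 18.7 and 18.1 TPM with enzalutamide, against 32.3 and 31.3 TPM with DMSO (log2 -0.76). Squalene epoxidase, Sqle, a rate-limiting enzyme of the later path, had 106 and 106 TPM with enzalutamide, against 172 and 179 TPM with DMSO (log2 -0.72). Cyp51, the lanosterol demethylase, had 66.6 and 67.1 TPM with enzalutamide, against 112 and 115 TPM with DMSO (log2 -0.75). These 3 genes had nearly the same log2 difference. Msmo1, which starts the removal of the methyl groups at carbon 4, had 127 and 122 TPM with enzalutamide, against 215 and 214 TPM with DMSO (log2 -0.78). Its partner in that removal, the dehydrogenase Nsdhl, had 47.9 and 52.0 TPM with enzalutamide, against 78.4 and 79.0 TPM with DMSO (log2 -0.65). The desaturase Sc5d had 58.3 and 58.9 TPM with enzalutamide, against 90.6 and 92.8 TPM with DMSO (log2 -0.64). The ketosterol reductase Hsd17b7 fell less than these by its estimate, with 56.0 and 54.9 TPM with enzalutamide, against 71.0 and 70.4 TPM with DMSO (log2 -0.35, adjusted p = 0.0025).

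The 2 genes that did not pass were also of this group. Tm7sf2, a sterol reductase that acts after Cyp51, had 28.2 and 32.9 TPM with enzalutamide, against 32.8 and 32.2 TPM with DMSO (log2 -0.09, SE 0.1, adjusted p = 0.58). Ebp, the sterol isomerase, had 31.0 and 29.7 TPM with enzalutamide, against 31.4 and 29.99 TPM with DMSO (log2 -0.02, SE 0.095, adjusted p = 0.93). In both genes the libraries of the groups overlapped, and their estimates turned positive when 1 library was left out: Tm7sf2 to 0.02 without enzalutamide library 1, and Ebp to 0.02 without DMSO library 1 and to 0.01 without enzalutamide library 2. The 28 calls were kept in every alternative fit that was run.

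All 4 genes of sterol control and transport fell under enzalutamide. Srebf2, which encodes SREBP-2, had 62.9 and 64.2 TPM with enzalutamide, against 98.0 and 99.5 TPM with DMSO (1.55-fold lower, log2 -0.63, SE 0.027, adjusted p = 1.9e-06). Srebf1, which encodes the SREBP-1 proteins, had 41.0 and 38.9 TPM with enzalutamide, against 50.4 and 48.9 TPM with DMSO (1.24-fold lower, log2 -0.31, SE 0.035, adjusted p = 0.00051). Both were lower in both enzalutamide libraries. Insig1, which retains the SREBPs in the endoplasmic reticulum and is itself their target, had 59.5 and 61.8 TPM with enzalutamide, against 83.4 and 87.5 TPM with DMSO (log2 -0.49, adjusted p = 0.00014). Stard4, a carrier of sterols between membranes, had 14.2 and 16.0 TPM with enzalutamide, against 25.4 and 28.4 TPM with DMSO (log2 -0.79, adjusted p = 0.00012).

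All 8 genes of fatty acid synthesis fell under enzalutamide, with a median log2 difference of -0.52. Scd2, a stearoyl-CoA desaturase that introduces the double bond of oleate, was the most abundant of the 30 genes and had 404 and 397 TPM with enzalutamide, against 688 and 697 TPM with DMSO (1.73-fold lower, log2 -0.79, SE 0.017, adjusted p = 4.8e-08). Its close paralog Scd1 had 243 and 245 TPM with enzalutamide, against 287 and 297 TPM with DMSO (1.20-fold lower, log2 -0.26, SE 0.03, adjusted p = 0.00048). The handling of reads shared by these paralogs is not given, so the split between them is uncertain. Fads2, the desaturase that begins the making of long polyunsaturated fatty acids, had 76.9 and 75.9 TPM with enzalutamide, against 139.7 and 142 TPM with DMSO (1.84-fold lower, log2 -0.87, adjusted p = 1.2e-07). Fads1, which acts later in that path, had 89.4 and 88.4 TPM with enzalutamide, against 125 and 125 TPM with DMSO (log2 -0.49). The elongase Elovl6 had 17.3 and 16.7 TPM with enzalutamide, against 31.7 and 29.8 TPM with DMSO (log2 -0.82). Fasn, the fatty acid synthase, fell by more than Fads1 in its estimate and had 97.2 and 99.995 TPM with enzalutamide, against 143 and 146 TPM with DMSO (log2 -0.55). Acly, which supplies cytosolic acetyl-CoA from citrate, had 262 and 269 TPM with enzalutamide, against 339 and 339.5 TPM with DMSO (log2 -0.35). Acaca, the carboxylase that makes malonyl-CoA, had 29.1 and 29.0 TPM with enzalutamide, against 33.9 and 34.9 TPM with DMSO, the smallest change among the 28 called (log2 -0.24, adjusted p = 0.0021).

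**Figure D2:**
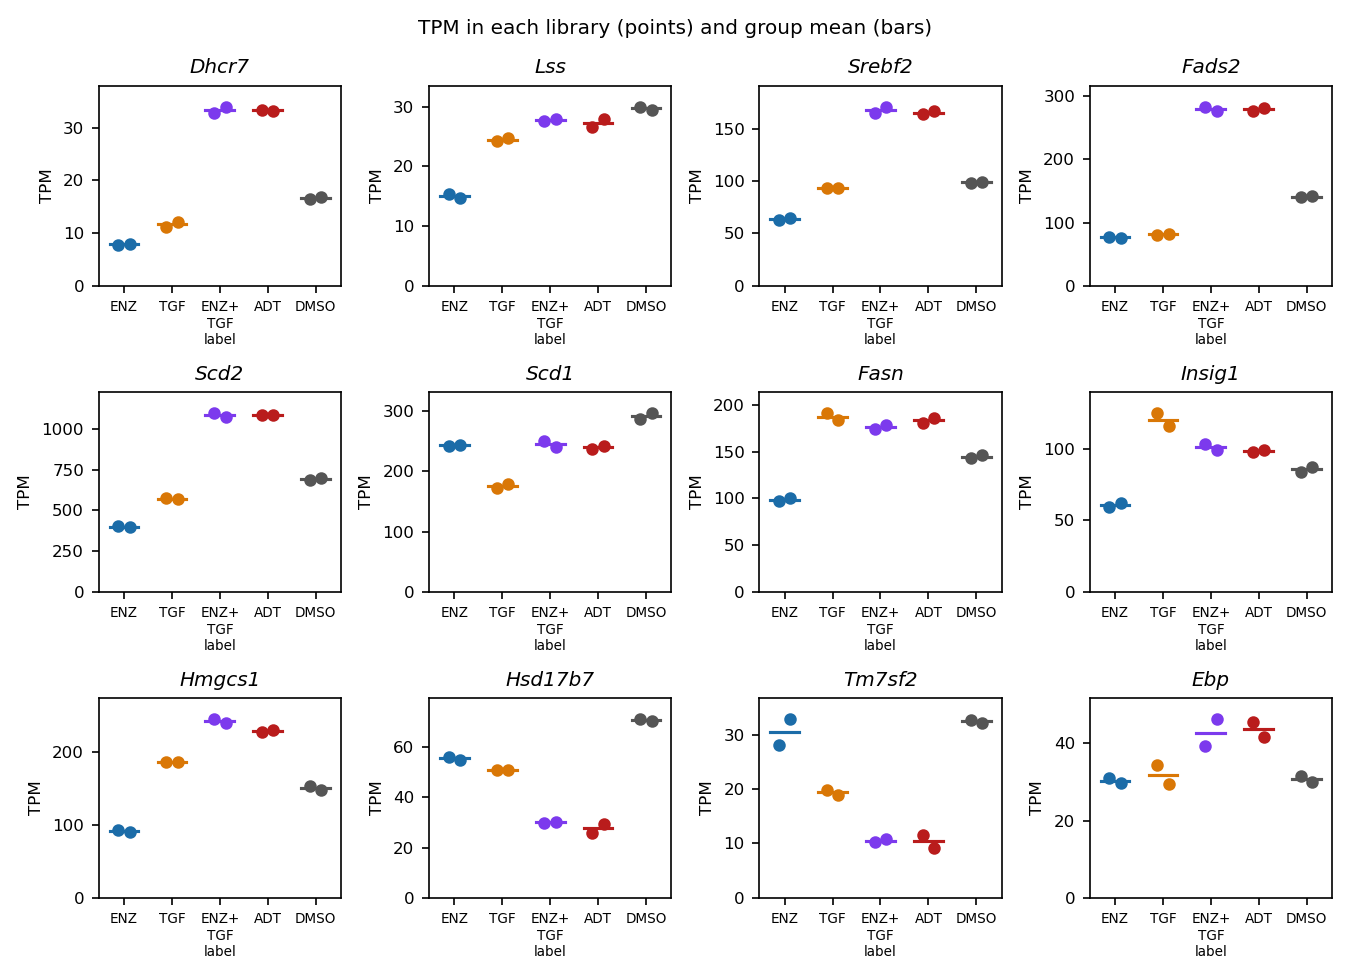
TPM of 12 of the 30 genes in each library (points) with the group mean (bars), for enzalutamide (ENZ), TGF-beta1 (TGF), the libraries labelled with both agents, the ADT mice and DMSO. For Dhcr7 the enzalutamide libraries lie lowest and the ADT libraries far above the DMSO libraries, while Tm7sf2 and Hsd17b7 are lowest in the ADT libraries and in those labelled with both agents.

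Genes around the path moved less uniformly under enzalutamide, where over all genes tested 15.2% fell and 9.83% rose. Of 20 other lipogenic genes tested, 10 fell and 1 rose, with a median log2 difference of -0.16. Acsl3, which activates long-chain fatty acids, had a log2 difference of -0.56, Mid1ip1, an activator of acetyl-CoA carboxylase, of -0.48, and Slc25a1, the mitochondrial citrate carrier, of -0.31. Of 8 genes of the liver X receptors and cholesterol efflux, 2 rose and 3 fell. Abca1, the cholesterol exporter that liver X receptors induce, had 19.96 and 21.3 TPM with enzalutamide, against 9.89 and 9.94 TPM with DMSO (2.08-fold higher, log2 0.99, SE 0.13, adjusted p = 0.00091). Of 12 genes of cholesterol uptake, trafficking and storage, 2 rose: Soat1, which esterifies cholesterol for storage, by 0.49 on the log2 scale and Vldlr, a lipoprotein receptor, by 0.44. Of 7 genes of SREBP escort and processing, 2 fell: Rnf145 (log2 -0.41) and Rnf139 (log2 -0.21), both ubiquitin ligases of the endoplasmic reticulum. Scap, the escort of the SREBPs, had 74.0 and 73.3 TPM with enzalutamide, against 72.5 and 74.9 TPM with DMSO (adjusted p = 1.0). Of 16 genes of fatty acid oxidation, 2 fell (12.5%, near the share over all genes), with Cpt1a, which admits fatty acids to mitochondria, at -0.58. Of 9 nonsterol isoprenoid genes, which draw on farnesyl diphosphate, 1 rose, the dolichol gene Dhdds (log2 0.21).

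With TGF-beta1, 20 of the 30 genes fell, 6 rose and 4 did not pass, where 34.6% of all genes tested fell and 19.0% rose. The share of the 30 that rose was close to that over all genes. The median log2 difference of the 30 was -0.27 and that of all genes tested was -0.10. In summed TPM the 30 genes held 88.9% of the DMSO mean in each TGF-beta1 library. Scaling the libraries by the median of ratios moved the TGF-beta1 differences up by 0.10 (log2, median over genes). Over all genes, 3944 then passed as higher and 3828 as lower, in place of 2816 and 5137.

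The 6 genes that rose with TGF-beta1 came from all 4 roles. Insig1 had 125 and 116 TPM with TGF-beta1, against 83.4 and 87.5 TPM with DMSO (1.41-fold higher, log2 0.49, SE 0.044, adjusted p = 3.7e-05). Fasn had 191 and 184 TPM with TGF-beta1, against 143 and 146 TPM with DMSO (1.30-fold higher, log2 0.37, SE 0.03, adjusted p = 1.9e-05). Hmgcs1 had 185 and 186 TPM with TGF-beta1, against 153 and 148 TPM with DMSO (1.23-fold higher, log2 0.30, SE 0.026, adjusted p = 2.8e-05). In these 3 genes both TGF-beta1 libraries lay above both DMSO libraries. Cyp51 had 129.6 and 131 TPM with TGF-beta1, against 112 and 115 TPM with DMSO (log2 0.20, adjusted p = 0.00037). Acly had 379 and 379 TPM with TGF-beta1, against 339 and 339.5 TPM with DMSO (log2 0.16, adjusted p = 0.00075). Stard4 had 31.6 and 32.1 TPM with TGF-beta1, against 25.4 and 28.4 TPM with DMSO (log2 0.24, adjusted p = 0.021). The Stard4 call did not hold without DMSO library 1 (log2 0.16, adjusted p = 0.13), without TGF-beta1 library 1 (log2 0.25, adjusted p = 0.062) or without TGF-beta1 library 2 (log2 0.23, adjusted p = 0.082).

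The 3 largest falls with TGF-beta1 were those of Fads2, Scd1 and Tm7sf2. Fads2 had 80.5 and 82.0 TPM with TGF-beta1, against 139.7 and 142 TPM with DMSO (1.73-fold lower, log2 -0.78, SE 0.023, adjusted p = 6.5e-08). Scd1 had 173 and 179.8 TPM with TGF-beta1, against 287 and 297 TPM with DMSO (1.65-fold lower, log2 -0.72, SE 0.03, adjusted p = 3.9e-07). Tm7sf2 had 19.8 and 19.0 TPM with TGF-beta1, against 32.8 and 32.2 TPM with DMSO (1.67-fold lower, log2 -0.72, SE 0.1, adjusted p = 0.00059). For all 3 the TGF-beta1 libraries lay wholly below the DMSO libraries. In the mevalonate branch, Pmvk (log2 -0.57), Mvk (log2 -0.53) and Acat2 (log2 -0.51) fell, and Fdps fell less by its estimate (log2 -0.16). In the later sterol steps, Dhcr7 had 11.2 and 12.1 TPM with TGF-beta1, against 16.5 and 16.8 TPM with DMSO (log2 -0.48), and Hsd17b7 (log2 -0.46), Sc5d (log2 -0.36), Nsdhl (log2 -0.31), Sqle (log2 -0.30), Msmo1 (log2 -0.28), Lss (log2 -0.27) and Fdft1 (log2 -0.22) fell too. In fatty acid synthesis, Elovl6 (log2 -0.44), Fads1 (log2 -0.34) and Scd2 (log2 -0.28) fell. The smallest calls were Mvd, with 53.8 and 53.2 TPM with TGF-beta1 against 57.0 and 57.1 TPM with DMSO (log2 -0.09, adjusted p = 0.033), and Srebf2, with 93.5 and 93.1 TPM with TGF-beta1 against 98.0 and 99.5 TPM with DMSO (log2 -0.08, adjusted p = 0.032). Neither passed when any 1 of the 4 libraries was left out: the log2 difference of Mvd then lay between -0.10 and -0.08 and its adjusted p between 0.076 and 0.12, and that of Srebf2 between -0.09 and -0.07 with an adjusted p between 0.064 and 0.13. After median-of-ratios scaling both turned positive, Mvd to 0.02 and Srebf2 to 0.03, and the falls of Fdps (log2 -0.05, adjusted p = 0.093) and Fdft1 (log2 -0.11, adjusted p = 0.12) no longer passed. Idi1 (log2 -0.17), Srebf1 (log2 -0.06), Acaca (log2 0.06) and Ebp (log2 0.05) did not pass with TGF-beta1. After that scaling Srebf1 turned to 0.05, and Acaca passed at 0.16 (adjusted p = 0.0042).

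**Figure D3:**
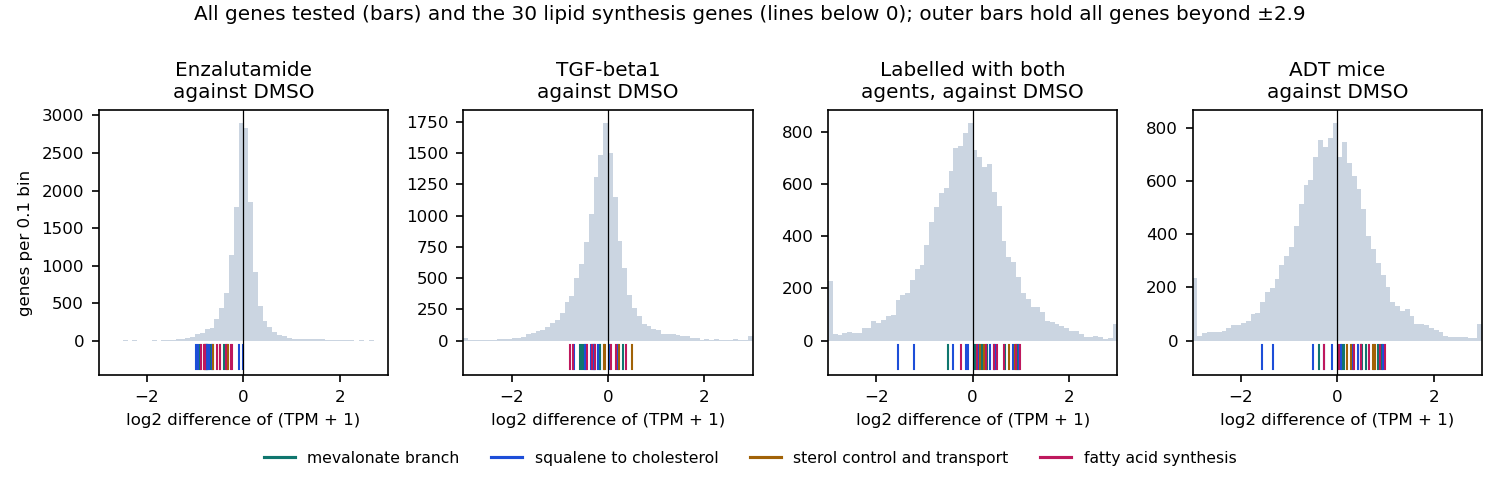
Histograms of the log2 differences of (TPM + 1) of all 14828 genes tested, in bins of 0.1, with the 30 genes as coloured lines below 0, for the 4 groups against DMSO; the outermost bars hold all genes beyond 2.9 in size. The enzalutamide lines lie at or left of the main mass of genes, with a median of -0.70 against -0.01, and the ADT lines lie mostly right of 0, with a median of 0.38 against -0.13.

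Counts around the path stand beside the 34.6% of all genes tested that fell with TGF-beta1 and the 19.0% that rose. TGF-beta1 lowered 5 of 7 genes of SREBP escort and processing, with Insig2, the second Insig gene, at 15.8 and 15.7 TPM with TGF-beta1 against 32.7 and 30.4 TPM with DMSO (log2 -0.96) and Scap at a log2 difference of -0.45. Of 16 genes of fatty acid oxidation, 11 fell and 1 rose, with Cpt1a at -0.91. Of 20 other lipogenic genes, 12 fell and 2 rose, with the elongase Elovl5 at -0.88 and the malic enzyme Me1, a source of NADPH, at -0.58. Of 8 genes of the liver X receptors and efflux, 5 fell and 1 rose, and among the falls were Rxra, the partner receptor, at -0.95 and Mylip, a ligase that degrades lipoprotein receptors, at -0.61. Abca1, which was higher with enzalutamide, had 3.70 and 3.23 TPM with TGF-beta1, against 9.89 and 9.94 TPM with DMSO (log2 -1.29). Of 12 genes of uptake, trafficking and storage, 4 rose and 5 fell, with Soat1 at 0.74 and Vldlr at -0.58. Of 9 nonsterol isoprenoid genes, 3 rose and 1 fell. As a check of the label, the TGF-beta target Itga11 rose by 1.26 and Tgfbi by 0.81 on the log2 scale, while Acta2, smooth muscle actin, fell to 3970.0 and 4026 TPM with TGF-beta1, against 5432 and 5343 TPM with DMSO. Of the 10 genes of that response list, 5 have DMSO values in steps of 0.3 read and were not counted. Of the 5 counted, 4 were lower and 1 higher than with DMSO in the libraries labelled with both agents, as in ADT CAFs. Over all genes tested, 42.7% were lower and 31.5% higher in the former, and 43.3% and 31.5% in the latter. Itga11 had 3.05 and 1.96 TPM in the libraries labelled with both agents and 2.70 and 2.41 TPM in ADT CAFs. With DMSO it had 46.1 and 45.7 TPM. Tgfbi, the higher one, had 57.6 and 52.8, 53.4 and 58.1, and 13.8 and 12.1 TPM in the same order.

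Enzalutamide and TGF-beta1 were also set against each other directly, a comparison added after the data had been seen. Of the 30 genes, 24 were lower and 2 higher with enzalutamide than with TGF-beta1, where 17.7% of all genes tested were lower and 31.9% higher. The median log2 difference of the 30 was -0.46 and that of all genes tested 0.10. Stard4 had 14.2 and 16.0 TPM with enzalutamide, against 31.6 and 32.1 TPM with TGF-beta1 (log2 -1.03, SE 0.07, adjusted p = 1.1e-05). Hmgcs1 had 92.4 and 89.8 TPM with enzalutamide, against 185 and 186 TPM with TGF-beta1 (log2 -1.02, SE 0.026, adjusted p = 5.9e-08). Insig1 (log2 -0.97), Cyp51 (log2 -0.95) and Fasn (log2 -0.92) were lower by similar amounts. The 2 genes higher with enzalutamide were Tm7sf2, with 28.2 and 32.9 TPM with enzalutamide against 19.8 and 19.0 TPM with TGF-beta1 (log2 0.62), and Scd1, with 243 and 245 TPM with enzalutamide against 173 and 179.8 TPM with TGF-beta1 (log2 0.46). Fads2 differed least among those called, at -0.09 (adjusted p = 0.016), and did not pass without enzalutamide library 2 (log2 -0.08, adjusted p = 0.076) or without TGF-beta1 library 2 (log2 -0.07, adjusted p = 0.084). Mvk, Pmvk, Hsd17b7 and Ebp did not pass, with adjusted p-values of 0.16, 0.077, 0.1 and 0.6. Pmvk passed without TGF-beta1 library 1 (log2 -0.36, adjusted p = 0.011) and after median-of-ratios scaling (log2 -0.31, adjusted p = 0.024). Over all genes, 3376 passed as higher and 3584 as lower after that scaling, in place of 4723 and 2618.

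Most of these genes were higher in CAFs of ADT mice than with DMSO. Of the 30, 20 were higher and 7 lower than with DMSO, where 31.5% of all genes tested were higher and 43.3% lower. The median log2 difference of the 30 was 0.38 and that of all genes tested was -0.13. Median-of-ratios scaling moved these differences up by 0.16, and over all genes 5693 then passed as higher and 5322 as lower, in place of 4668 and 6423. The ADT libraries were untreated at day 0 and the DMSO libraries had vehicle to day 7, so the source mice, the time and the vehicle cannot be told apart.

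By summed TPM, in which the abundant Fdps weighs most, the mevalonate branch was the highest role relative to DMSO. Its summed TPM was 154.4% and 153.1% of the DMSO mean in the ADT libraries, against 100.9% and 99.1% in the DMSO libraries. By median log2 difference it lay close to other roles, at 0.52 against 0.51 for sterol control and transport and 0.48 for fatty acid synthesis. The median of the later sterol genes was 0.07. Acat2 had 139 and 138 TPM in ADT CAFs, against 70.9 and 74.0 TPM with DMSO (1.91-fold higher, log2 0.92, SE 0.039, adjusted p = 1.4e-07). Fdps had 502 and 486 TPM in ADT CAFs, against 275 and 272 TPM with DMSO (1.81-fold higher, log2 0.85, SE 0.02, adjusted p = 5.5e-09). Hmgcs1 (log2 0.60), Pmvk (log2 0.52) and Mvd (log2 0.15) were also higher, and Mvk was lower, with 45.8 and 48.7 TPM in ADT CAFs against 63.8 and 59.0 TPM with DMSO (log2 -0.37). Idi1 did not pass (adjusted p = 0.26).

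**Figure D4:**
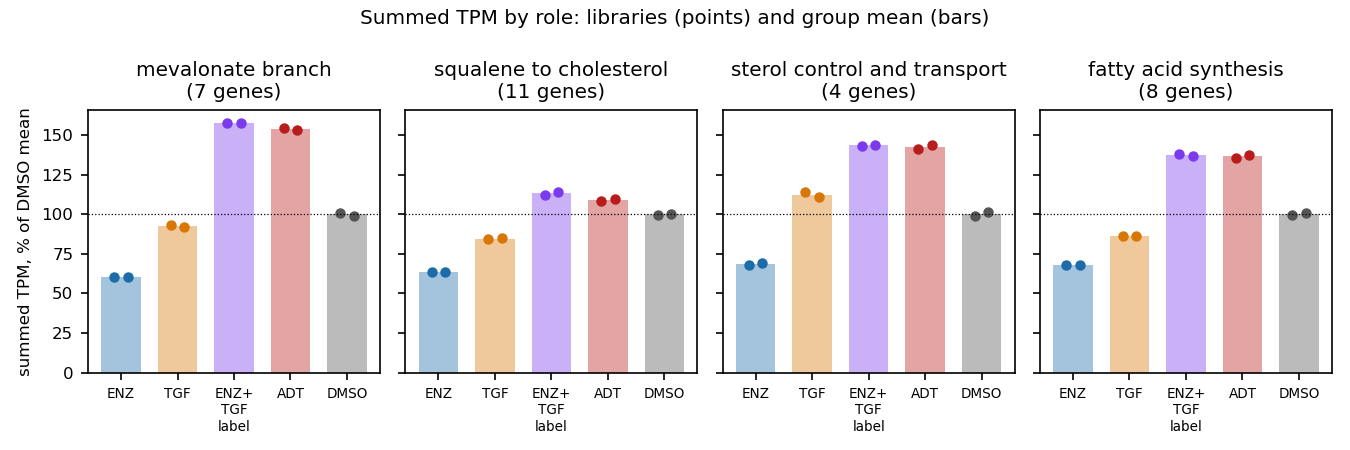
Summed TPM of the genes of each role as a percentage of the DMSO mean, with 1 point per library and bars at the group mean, for enzalutamide (ENZ), TGF-beta1 (TGF), the libraries labelled with both agents, the ADT mice and DMSO. The enzalutamide libraries lie between 60.1% and 69.4% in the 4 panels, and the ADT libraries between 108.4% and 154.4%.

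The 11 later sterol genes were divided in ADT CAFs, 5 higher and 5 lower. Dhcr7 had 33.3 and 33.2 TPM in ADT CAFs, against 16.5 and 16.8 TPM with DMSO (2.00-fold higher, log2 0.96, SE 0.05, adjusted p = 5.2e-07), and Cyp51 had 189.5 and 195 TPM in ADT CAFs, against 112 and 115 TPM with DMSO (log2 0.76). Ebp, with 45.6 and 41.6 TPM in ADT CAFs against 31.4 and 29.99 TPM with DMSO (log2 0.49), Sqle (log2 0.42) and Fdft1 (log2 0.33) were higher as well. Tm7sf2 had 11.6 and 9.21 TPM in ADT CAFs, against 32.8 and 32.2 TPM with DMSO (3.12-fold lower, log2 -1.56, SE 0.1, adjusted p = 2.2e-06). Hsd17b7 had 25.8 and 29.3 TPM in ADT CAFs, against 71.0 and 70.4 TPM with DMSO (2.56-fold lower, log2 -1.33, SE 0.054, adjusted p = 1.0e-07). These were the 2 largest falls among the 30 genes. Sc5d (log2 -0.50), Nsdhl (log2 -0.28) and Lss (log2 -0.12, adjusted p = 0.03) were lower by less. Without ADT library 1, DMSO library 1 or DMSO library 2 the Lss call was lost (log2 -0.09, -0.11 and -0.13, with adjusted p = 0.15, 0.11 and 0.074), and after median-of-ratios scaling Lss stood at 0.04 and Nsdhl at -0.11 (adjusted p = 0.061). Msmo1 had 216 and 234 TPM in ADT CAFs, against 215 and 214 TPM with DMSO, and did not pass (adjusted p = 0.13), but passed without ADT library 1 (log2 0.13, adjusted p = 0.0093).

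All 4 genes of sterol control and transport were higher in ADT CAFs. Srebf2 had 164 and 167 TPM in ADT CAFs, against 98.0 and 99.5 TPM with DMSO (1.67-fold higher, log2 0.74, SE 0.027, adjusted p = 5.5e-08). Stard4 had 45.6 and 48.9 TPM in ADT CAFs, against 25.4 and 28.4 TPM with DMSO (log2 0.79), and Srebf1 (log2 0.28) and Insig1 (log2 0.20) were higher by less. Of the 8 fatty acid synthesis genes, 6 were higher. Fads2 had 277 and 282 TPM in ADT CAFs, against 139.7 and 142 TPM with DMSO (1.99-fold higher, log2 0.99, SE 0.023, adjusted p = 5.1e-09). Fads1 had 231 and 232 TPM in ADT CAFs, against 125 and 125 TPM with DMSO (log2 0.88). Scd2 had 1083 and 1087 TPM in ADT CAFs, against 688 and 697 TPM with DMSO (log2 0.65), whereas its paralog Scd1 had 237 and 243 TPM in ADT CAFs, against 287 and 297 TPM with DMSO, and was lower (log2 -0.28, adjusted p = 4.0e-05). Elovl6 (log2 0.49), Acaca (log2 0.48) and Fasn (log2 0.34) were higher, and Acly did not pass (adjusted p = 0.25). After median-of-ratios scaling Acly (log2 0.20), Msmo1 (log2 0.24) and Idi1 (log2 0.26) passed as higher.

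Counts around the path stand beside the 31.5% of all genes tested that were higher in ADT CAFs and the 43.3% that were lower. ADT CAFs had lower levels of 6 of 7 genes of SREBP escort and processing, with Scap at 41.5 and 43.3 TPM in ADT CAFs against 72.5 and 74.9 TPM with DMSO (log2 -0.78) and Insig2 at a log2 difference of -0.96. Abca1 had 0.334 and 0.688 TPM in ADT CAFs, against 9.89 and 9.94 TPM with DMSO (log2 -2.86, adjusted p = 1.7e-07), and 6 of the 8 genes of the liver X receptors and efflux were lower and 2 higher. Of 16 genes of fatty acid oxidation, 11 were lower and 1 higher, with Pdk4, a kinase that shuts pyruvate out of oxidation, at -4.22 and Cpt1a at -2.23. Of 12 genes of uptake, trafficking and storage, 3 were higher and 6 lower, and among the higher were Scarb1, a receptor for high-density lipoprotein, at 1.33 and Vldlr at 0.94. Of 20 other lipogenic genes, 8 were higher and 7 lower, with Me1 at -1.12 and Acsl3 at 0.72. Of 9 nonsterol isoprenoid genes, 2 were higher and 4 lower. The counts of this list and of uptake, trafficking and storage lay near the shares over all genes.

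The libraries labelled with both agents carried nearly the ADT levels of these genes, though the 30 differed more against sampling noise than genes as a whole. For the 30 genes the 2 groups differed by 3.31 to 4.51 times sampling noise, against 1.81 to 2.52 times over all genes. At the same fold difference this measure grows with the number of reads. All genes with at least 20 reads summed over a pair of libraries entered it, and the 30 were not matched to them by reads. Within the groups the 30 genes differed by 1.99 times (both agents) and 2.08 times (ADT). Against DMSO, 22 of the 30 were higher and 6 lower, where 31.5% of all genes tested were higher and 42.7% lower. Set against the ADT libraries, none of the 30 passed in limma, 8 had an unadjusted p under 0.05, and their log2 differences lay between -0.21 and 0.15. Over all genes 2 of 14828 passed (0.0135%), and 1220 had an unadjusted p under 0.05 (8.23%). Fads2, for example, had 282 and 277 TPM in the libraries labelled with both agents, against 277 and 282 TPM in ADT CAFs. Dhcr7 had 32.8 and 33.8 TPM in the libraries labelled with both agents, against 33.3 and 33.2 TPM in ADT CAFs. The summed level of the 30 genes was 135.8% and 135.7% of the DMSO mean in the libraries labelled with both agents, against 133.0% and 134.1% in ADT CAFs. The smaller calls of the libraries labelled with both agents against DMSO did not hold in every fit. Idi1 (log2 0.19, adjusted p = 0.04) lost its call without DMSO library 2 (adjusted p = 0.19) or library 1 (0.085) or 2 (0.14) labelled with both agents. Nsdhl (log2 -0.13, adjusted p = 0.036) lost it without any 1 of the 4 libraries (0.054 to 0.16). Pmvk (log2 0.30, adjusted p = 0.016) lost it without DMSO library 1 (0.075) or library 1 labelled with both agents (0.087). Msmo1 (log2 0.14) and Acly (log2 0.09) lost it without library 2 labelled with both agents (adjusted p = 0.061 and 0.076). Median-of-ratios scaling moved these differences up by 0.15, and Nsdhl then stood at 0.02. Over all genes 5612 then passed as higher and 5313 as lower, in place of 4672 and 6335.

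With the labels taken as given, the change with enzalutamide in the presence of TGF-beta1 was tested against the change with enzalutamide in its absence. The difference of these changes was positive for 28 of the 30 genes and negative for 2, Tm7sf2 and Hsd17b7, where it passed as positive for 30.7% and as negative for 33.1% of all genes tested. It was largest for Fads2, at 2.64 on the log2 scale (SE 0.033, adjusted p = 4.0e-10). The libraries labelled with both agents, which lie close to those of the ADT mice, enter this test for every gene.

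By level, Scd2 was the most abundant of the 30 genes in every group, at 404 and 397 TPM with enzalutamide, 574 and 570.0 TPM with TGF-beta1, 1095 and 1073 TPM in the libraries labelled with both agents, 1083 and 1087 TPM in ADT CAFs and 688 and 697 TPM with DMSO. Dhcr7 was the least abundant with enzalutamide, TGF-beta1 and DMSO, and Tm7sf2 in the libraries labelled with both agents and in ADT CAFs, with 10.3 and 10.8 TPM and 11.6 and 9.21 TPM. Among the 4 groups other than the libraries labelled with both agents, 18 of the 30 genes had their lowest pair of libraries with enzalutamide and their highest pair in ADT CAFs, with no overlap with any other group, which held for 3.88% of all 14828 genes tested. For 14 of these, and for 1.093% of all genes tested, the groups followed one another without overlap, with enzalutamide lowest, then TGF-beta1, then DMSO, then ADT CAFs: Acat2, Pmvk, Mvd, Fdps, Fdft1, Sqle, Msmo1, Dhcr7, Srebf1, Srebf2, Elovl6, Scd2, Fads1 and Fads2. Of the neighbours in that order, the enzalutamide and TGF-beta1 levels of Pmvk, the TGF-beta1 and DMSO levels of Srebf1 and the ADT and DMSO levels of Msmo1 did not pass limma's test. The step from TGF-beta1 to DMSO also depended on scaling. After median-of-ratios scaling the TGF-beta1 estimates of Mvd, Srebf1 and Srebf2 lay above DMSO (log2 0.02, 0.05 and 0.03). The falls of Fdps and Fdft1 then no longer passed. This order is a description of the levels, and the groups share their DMSO libraries in the tests above. Neither pattern was among the planned comparisons. Both restate directions given above for the same 30 genes, so their counts beside the shares over all genes are not a test.

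Of the 10 fibroblast markers, 3 rose and 5 fell with TGF-beta1, 4 were higher and 3 lower in the libraries labelled with both agents, and 3 were higher and 3 lower in ADT CAFs, each against DMSO. Over all genes tested, 19.0% were higher and 34.6% lower with TGF-beta1. In the libraries labelled with both agents these shares were 31.5% and 42.7%, and in ADT CAFs 31.5% and 43.3%. The 10 markers summed to 15180 to 15410 TPM with TGF-beta1, 17780 to 17950 TPM in the libraries labelled with both agents and 18230 to 18310 TPM in ADT CAFs. Markers of other cell types were read in the same libraries. Adipocyte markers were near 0: of 8 markers only Fabp4 reached 1 TPM, and the list summed to 5.22 to 6.83 TPM with enzalutamide, 4.50 to 4.51 TPM with TGF-beta1, 16.8 to 17.9 TPM in the libraries labelled with both agents, 13.9 to 18.6 TPM in ADT CAFs and 10.6 to 14.4 TPM with DMSO. Retn was at 0 in every group, and Adipoq, Cidec, Lep, Plin1, Cfd or Cidea in some. Macrophage and leukocyte markers, led by Lyz2, summed to 78.9 to 86.5 TPM with enzalutamide, 82.0 to 85.8 TPM with TGF-beta1, 5.66 to 8.08 TPM in the libraries labelled with both agents, 9.28 to 10.7 TPM in ADT CAFs and 92.6 to 94.7 TPM with DMSO. Between 3 and 5 of these 8 markers reached 1 TPM, and Cd3e was at 0 throughout. Endothelial markers summed to 10.5 to 10.9 TPM with enzalutamide, 11.1 to 11.3 TPM with TGF-beta1, 1.27 to 1.53 TPM in the libraries labelled with both agents, 1.30 to 1.76 TPM in ADT CAFs and 15.2 to 16.6 TPM with DMSO. Up to 3 of these 6 markers reached 1 TPM, and Emcn and Tie1 were at 0 in ADT CAFs and in the libraries labelled with both agents. Epithelial markers, led by Krt19, summed to 15.1 to 16.3 TPM with enzalutamide, 9.25 to 11.5 TPM with TGF-beta1, 28.3 to 29.8 TPM in the libraries labelled with both agents, 25.7 to 26.3 TPM in ADT CAFs and 19.5 to 19.95 TPM with DMSO, with 1 or 2 of 8 markers at 1 TPM or more. The leukocyte and endothelial sums were lower in ADT CAFs than with DMSO, and their part in the differences of the 30 genes was not tested.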

How the data were processed

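RNA of the CAF libraries was extracted with Trizol and prepared with the NEBNext Ultra kit for a HiSeq instrument, per the labels' protocols. The deposited values are TPM per the file headers, with genes named by symbol and without positions. HISAT2, HTSeq, DESeq2, mm10 and hg19 are named in the submitters' processing notes without role or version, and strandedness, the annotation and the handling of shared reads are not stated. A further allele shared by the source mice of all groups is not reported here. The columns of all CAF samples were mapped by title, and 0 columns stayed unmapped. The deposited table of the LNCaP cells was not used.

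The 30 genes and all lists were chosen with earlier results of these data known. The model, fitted in R 4.3.3 by limma 3.58.1 with a mean-variance trend, took log2(TPM + 1) of 10 libraries in 5 groups of 2, had no block and left 5 residual degrees of freedom, common to the groups. Genes at 1 TPM or more in at least 2 libraries were kept, tests are two-sided, and p-values were adjusted by Benjamini-Hochberg over 14828 genes. Log2 differences are on the log2(TPM + 1) scale and understate the fold of low genes, and folds are ratios of mean TPM. Reads were recovered from the steps of each gene's values where at least 6 libraries were above 0, with values taken as whole when within 0.05 of an integer number of reads. This gave at least 99.8% of each TPM total. Beside the 30 genes, at most 3 genes of a list with the smallest adjusted p in a comparison were to be named, with Acta2, Tagln and Smad7 among the checks, and Scap with enzalutamide was named outside this rule, after its values were seen. Also named after their values were seen were Abca1 with TGF-beta1, and Itga11 and Tgfbi in ADT CAFs and the libraries labelled with both agents. Same-numbered libraries were not paired: their deviations correlated across genes at -0.03 to 0.09. Alternative settings were no filter, a pseudocount of 0.1, median-of-ratios scaling, a replicate block, no trend, the Sox4-labelled columns as a further group, no libraries labelled with both agents, and each library left out in turn. The division of 55 genes' DMSO values by 0.3 and the comparison of enzalutamide with TGF-beta1 were added after seeing the data. The counts of genes by the order of the groups were not among the planned comparisons. No sequence is shown, since the sequence tables at hand are human.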

Additional observations from a re-analysis of the deposited data

Results flagged for a closer look

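With the labels taken as given, the enzalutamide change with TGF-beta1 differed from that without it for all 30 genes in limma. Over all genes tested, this difference passed as positive for 30.7% and as negative for 33.1%. The values below are that difference on the log2 scale: the libraries labelled with both agents minus TGF-beta1, less enzalutamide minus DMSO. In the mevalonate branch it was 2.21 for Acat2, 1.82 for Fdps, 1.67 for Pmvk, 1.27 for Idi1, 1.10 for Hmgcs1, 0.82 for Mvd and 0.43 for Mvk. In the later sterol steps it was 2.43 for Dhcr7, 1.46 for Sqle, 1.38 for Cyp51, 1.32 for Fdft1, 1.20 for Msmo1, 1.11 for Lss, 0.82 for Nsdhl, 0.59 for Sc5d, 0.43 for Ebp, -0.40 for Hsd17b7 and -0.73 for Tm7sf2. For sterol control and transport it was 1.47 for Srebf2, 1.43 for Stard4, 0.52 for Srebf1 and 0.24 for Insig1. For fatty acid synthesis it was 2.64 for Fads2, 1.77 for Elovl6, 1.72 for Fads1, 1.71 for Scd2, 0.74 for Scd1, 0.62 for Acaca, 0.46 for Fasn and 0.28 for Acly. The adjusted p of Ebp was 0.022 and its call was lost without DMSO library 1 (0.40, adjusted p = 0.065), enzalutamide library 2 (0.40, adjusted p = 0.063), TGF-beta1 library 2 (0.32, adjusted p = 0.069) or library 2 labelled with both agents (0.31, adjusted p = 0.071). None of the 30 genes passed in limma between the libraries labelled with both agents and those of the ADT mice, which were untreated. The libraries labelled with both agents differed from those of the ADT mice by 1.81 to 2.52 times sampling noise and from the TGF-beta1 libraries by 209 to 221 times, and the part of this in the differences was not tested.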

How the results depend on the processing

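Of 2220 values of the 30 genes under the alternatives, 2156 kept their direction and their side of the threshold, 8 passed newly, 45 no longer passed and 11 changed sign, 4 of these from a value that had passed. All 28 falls with enzalutamide held in every alternative run, as did 21 of 26 calls with TGF-beta1, 23 of 28 in the libraries labelled with both agents, 25 of 27 in ADT CAFs and 25 of 26 of enzalutamide against TGF-beta1. Median-of-ratios scaling turned Mvd (0.0151), Srebf1 (0.0477) and Srebf2 (0.0256) with TGF-beta1, Lss (0.0595) and Nsdhl (0.0225) in the libraries labelled with both agents, and Lss (0.0420) in ADT CAFs. It moves the genes of these comparisons up by 0.10 to 0.16 (median over genes). Leaving out 1 library turned genes that had not passed: with enzalutamide, Ebp (-0.0492 to 0.0165, and 0.0116) and Tm7sf2 (-0.1961 to 0.0158), with TGF-beta1, Ebp (-0.0632 to 0.1606), and between the agents, Ebp (-0.1770 to 0.0469). The 2 genes that passed between the libraries labelled with both agents and the ADT mice became 6 with a pseudocount of 0.1, 14 without a filter, 5 with the Sox4-labelled columns and 0 to 2 with 1 library left out. With the replicate block they became 0, and Idi1 of the libraries labelled with both agents lost its call (adjusted p = 0.053); the block changed no other call of the 30 genes. Genes called over all genes with 1 library left out ran from 2501 to 2562 for enzalutamide, against 3708 with all libraries. Dividing 55 genes' DMSO values by 0.3 gave 3684 genes called for enzalutamide, 7944 for TGF-beta1, 11003 in the libraries labelled with both agents and 11089 in ADT CAFs. With 2 libraries a group, Pmvk, Tm7sf2 and Ebp, all of few reads, had the largest standard errors of the 30 genes. Dhcr7, also of few reads, had a smaller one (0.05 for enzalutamide against DMSO).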
